A study of Arabidopsis thaliana with 11 samples.

Results

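The secreted peptides that set stomatal number and spacing in Arabidopsis thaliana, and the proteases that have been linked to them, are described here in seedlings in which the stomatal regulator SPEECHLESS (SPCH) was induced. The set is 10 loci of the 33602 in the table, taken by locus identifier. No measured value entered that rule, but the genes were chosen with earlier results of these data known. They are the cysteine-rich peptide genes EPF1 (AT2G20875), EPF2 (AT1G34245), EPFL9 (AT4G12970), EPFL6 (AT2G30370), EPFL4 (AT4G14723) and EPFL5 (AT3G22820), the CLE peptide genes CLE9 (AT1G26600) and CLE10 (AT1G69320), and the subtilase genes SDD1 (AT1G04110) and AT1G20150. The last locus was listed under the name CRSP, which the RefSeq annotation does not bear out. RefSeq gives AT1G20150 no symbol, and the neighbouring AT1G20160 carries the symbol ATSBT5.2, the subtilase for which the name CRSP is in use. AT1G20150 is therefore called by its locus, and SBT5.2 is given beside it as a gene outside the set.

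Poly-A RNA came from whole seedlings, 4 days old and grown in light. The iSPCH line carries ESTpro:SPCH1-4A-YFP, an estradiol-inducible promoter driving a YFP-tagged form of SPCH known as a variant with altered MAP kinase target sites, and its induction is not limited to the stomatal lineage as far as the labels say. The other line was Columbia wild type (WT). The 0 h group of each line was left untreated, and the 6 h and 8 h groups stood in estradiol at 10 µM for that time, so both lines received the hormone and no group was incubated without it. The 6 groups comprised 11 libraries: untreated WT had 1 and every other group had 2. The labels do not state separate cultures for the libraries of a group, and p-values therefore cover the spread between libraries, which may be technical.

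Epidermal patterning factor (EPF) peptides are secreted signals that are read by ERECTA-family receptor kinases together with the receptor-like protein TMM, and that act through a MAP kinase cascade on SPCH. EPF2 and EPF1 restrain the stomatal lineage, EPF2 at its entry and EPF1 later, in spacing. EPFL9, also called STOMAGEN, is made in the inner leaf tissue and competes with them as a promoter of stomata, while EPFL4, EPFL5 and EPFL6 (the CHALLAH group) are ERECTA ligands of inner tissues. CLE9 and CLE10 are precursors of short CLE peptides that are perceived by the receptor kinase HSL1. Subtilases are secreted serine proteases, several of which cut peptide precursors.

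In RefSeq's TAIR10.1 annotation the EPF genes lie with EPF2 at chr1:12472868-12473974 (plus strand) and EPF1 at chr2:8982863-8983814 (minus strand), and EPFL9 at chr4:7585869-7587099 (minus strand). The CHALLAH group lies with EPFL6 at chr2:12940349-12942829 (minus strand), EPFL5 at chr3:8073258-8074178 (minus strand) and EPFL4 at chr4:8439899-8440901 (plus strand). The others are CLE9 at chr1:9191503-9192590 (plus strand), CLE10 at chr1:26061774-26062536 (plus strand), SDD1 at chr1:1061297-1063809 (minus strand) and AT1G20150 at chr1:6987272-6990362 (minus strand). Of the 10 only AT1G20150 overlaps another annotated gene.

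The coding ends of the 6 EPF-type genes are shown because the mature peptide lies there, and the cysteines that fold it set the subgroups apart. Shown for each gene are the last 45 codons and the stop codon, 5′ to 3′, from RefSeq's TAIR10.1 genome, with in-frame cysteine codons (TGT or TGC) in capitals.
EPF2: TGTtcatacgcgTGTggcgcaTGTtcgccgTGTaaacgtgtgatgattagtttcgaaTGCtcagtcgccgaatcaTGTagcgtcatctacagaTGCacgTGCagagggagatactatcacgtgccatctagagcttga
EPF1: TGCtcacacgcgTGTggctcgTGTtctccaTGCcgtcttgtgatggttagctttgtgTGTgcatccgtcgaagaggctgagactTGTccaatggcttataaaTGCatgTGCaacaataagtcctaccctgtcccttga
EPFL9: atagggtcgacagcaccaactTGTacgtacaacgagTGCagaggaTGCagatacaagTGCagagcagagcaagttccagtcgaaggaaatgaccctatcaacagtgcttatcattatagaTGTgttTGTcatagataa
EPFL6: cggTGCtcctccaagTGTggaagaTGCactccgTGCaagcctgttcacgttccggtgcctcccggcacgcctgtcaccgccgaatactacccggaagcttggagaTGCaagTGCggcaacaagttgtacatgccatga
EPFL4: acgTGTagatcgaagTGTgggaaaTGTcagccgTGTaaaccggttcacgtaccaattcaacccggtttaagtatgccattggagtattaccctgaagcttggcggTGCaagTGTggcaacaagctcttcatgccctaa
EPFL5: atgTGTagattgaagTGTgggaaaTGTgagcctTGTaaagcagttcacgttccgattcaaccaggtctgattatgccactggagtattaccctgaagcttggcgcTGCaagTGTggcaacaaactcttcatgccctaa
EPF2 and EPF1 had 8 such codons in this stretch and the other 4 genes had 6. Aligned from the stop codon without gaps, EPFL4 and EPFL5 shared 89.1% of their 138 bases, EPF1 and EPF2 shared 49.3%, and EPFL4 and EPFL6 shared 66.7%. None of the 10 genes had a near-identical copy, taken as another locus with at least 95% identity over at least 100 bases.

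The 11 libraries held 15656542 to 32807092 assigned reads, and the floors below cover counting error only. The ± values are limma SEs. They rest on 1 variance per gene, pooled over the groups and adjusted toward that of genes at similar levels. They are therefore not the spread of the compared groups alone, and untreated WT, with 1 library, adds none. The targeted gene SPCH had 37224 and 37521 normalised read counts in iSPCH at 6 h and 41639 and 39757 at 8 h, against 103.3 and 129.8 in WT at 6 h and 99.5 and 140.5 at 8 h. At 0 h it had 169.8 and 232.3 in iSPCH and 177.9 in the single WT library. In WT its log2 difference from 0 h was -0.62 ± 0.23 at 6 h (limma adjusted p = 0.0499) and -0.59 ± 0.23 at 8 h (0.0565). The counts at that locus do not separate the transgene from the native copy. A normalised read count is the reads of a gene divided by the authors' size factor of the library. The 2 libraries of a group are called A and B in an arbitrary order, since the labels' replicate numbers could not be traced to values. Marker genes of all tissues listed were above 0 in every group, root markers included, as whole seedlings would give. Of the epidermis markers 4 of 5 were lower in iSPCH at 8 h, of the root markers 4 of 6, and of the guard cell markers 2 of 7, with none higher in any of these lists, beside 5.87% of all tested genes called lower and 4.75% higher. At 6 h 3 of 5, 2 of 6 and 2 of 7 were lower in the same order, and 1 root marker was higher. Beside these, 3.53% of all tested genes were called lower at 6 h and 1.16% higher. Summed deposited means at 8 h were 9218 in iSPCH and 12018 in WT for the epidermis list, 1820 in iSPCH and 2371 in WT for the root list, and 39041 in iSPCH and 42947 in WT for the guard cell list (8 genes, 7 of them tested). The part of these markers in the results below was not tested. In whole seedlings, fewer cells of a type and less RNA per cell cannot be told apart.

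Of the 10 genes, 5 passed the filter on low reads (CPM of 1 or more in 2 or more libraries) and were tested: EPF2, EPF1, EPFL9, CLE9 and SDD1. The test was limma-trend on log2 of the normalised read count plus 1, with Benjamini-Hochberg adjustment over 19625 genes and a threshold of 0.05. Between the lines, EPF2 and CLE9 were higher in iSPCH and EPFL9 was lower, both at 6 h and at 8 h, and EPF1 and SDD1 did not pass the test at either hour. These are 3 of 5 genes at each hour, beside 4.68% of all tested genes called at 6 h (1.16% higher, 3.53% lower) and 10.6% at 8 h (4.75% higher, 5.87% lower). The genes were chosen with earlier results of these data known, so these counts are a description and no test of the set. Before induction 0 of the 5 were called, 0 had an unadjusted p under 0.05, and edgeR and DESeq2 also called 0, beside 0.0917% of all tested genes. The median line difference at 8 h was 0.57 over the 5 genes and -0.03 over all tested genes. The 0.57 is the value of EPF1, which was not called, and the genes on either side of it differ in direction. Over all genes the calls split into 227 higher and 692 lower at 6 h and 932 higher and 1152 lower at 8 h. With scaling by library size alone they split into 771 higher and 430 lower at 6 h and 1754 higher and 633 lower at 8 h, and the median of all genes was 0.107 and 0.094.

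**Figure D1:**
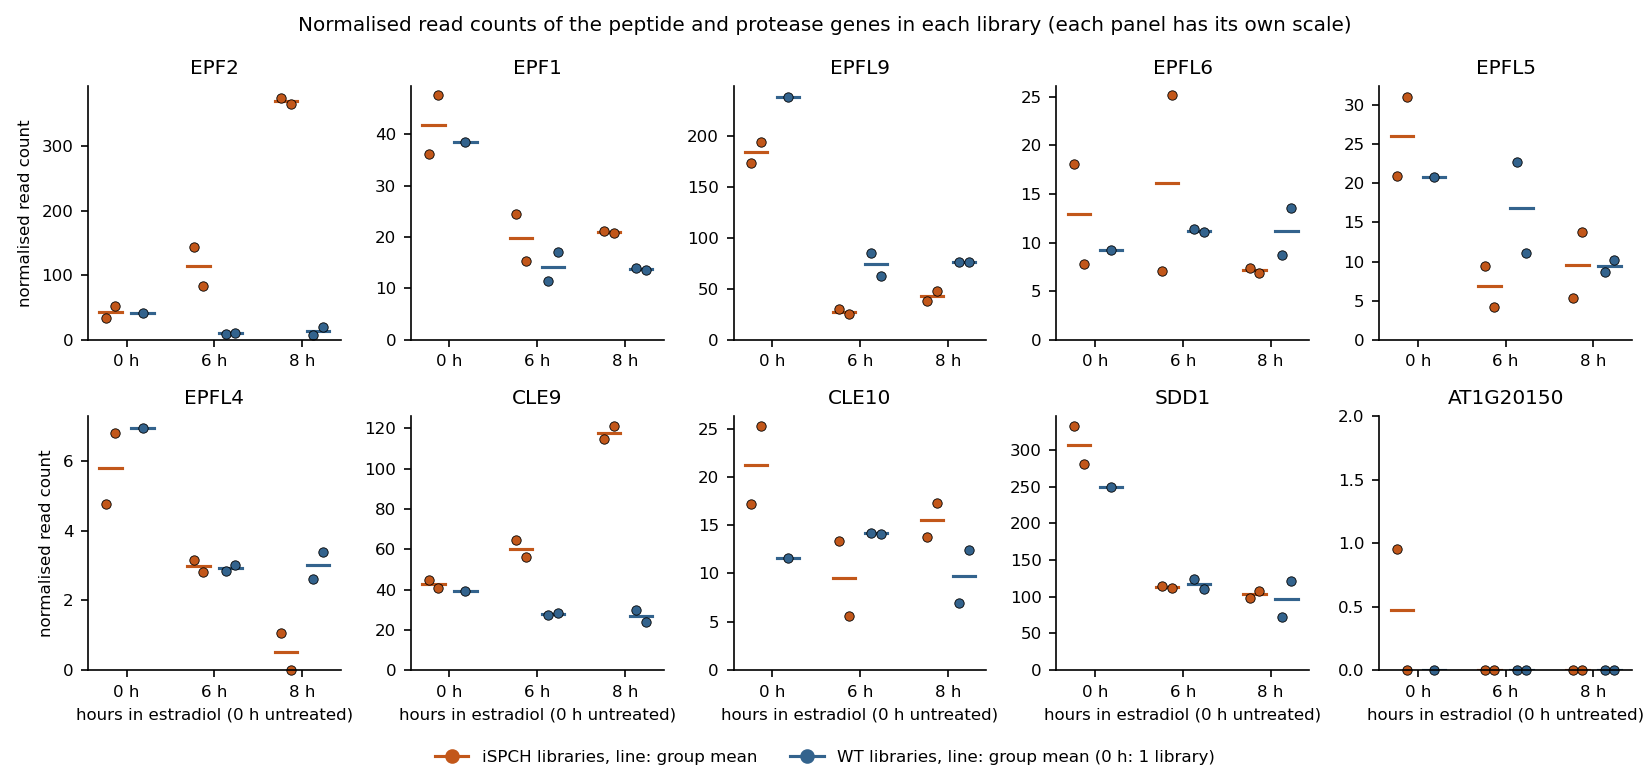
Normalised read counts of the 10 genes (vertical axes, each panel on its own scale from 0) in iSPCH and WT libraries at 0 h, 6 h and 8 h; points are libraries and short lines are group means. EPF2 at 8 h stood at 375 and 365 in iSPCH and at 7.86 and 20.4 in WT, and AT1G20150 was at 0 in 10 of 11 libraries.

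EPF2, the early inhibitor, had the largest difference of the set and moved apart in both directions. In iSPCH it had 33.4 and 51.5 normalised read counts at 0 h, 143.4 and 84.0 at 6 h, and 374.8 and 364.5 at 8 h. In WT it had 41.6 at 0 h, 9.48 and 10.06 at 6 h, and 7.86 and 20.4 at 8 h. The 2 lines overlapped at 0 h and every iSPCH library lay above every WT library at 6 h and at 8 h. With at most 2 libraries in a group, groups can lie apart with no difference between them. The share of all genes whose libraries lay apart was not counted, here or for the genes below. EPF2 was 10.3-fold higher in iSPCH than in WT at 6 h (log2 difference 3.36 ± 0.38 SE, limma adjusted p = 0.000506) and 26.9-fold higher at 8 h (4.75 ± 0.38, adjusted p = 9.58e-06). The WT libraries rested on 10 and 10 reads at 6 h and on 9 and 18 reads at 8 h. At 8 h the log2 difference was 4.11 without WT library A and 5.39 without WT library B.

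Its increase within iSPCH and its decrease within WT each passed the test. Against untreated seedlings of the same line, EPF2 was 2.61-fold higher in iSPCH at 6 h (1.38 ± 0.38, adjusted p = 0.00678) and 8.72-fold higher at 8 h (3.12 ± 0.38, adjusted p = 1.2e-05). The 6 h call was lost without iSPCH library A of 0 h (adjusted p = 0.065) or of 6 h (0.0582). In WT it fell by 1.98 ± 0.47 on the log2 scale at 6 h (adjusted p = 0.00308) and by 1.63 ± 0.47 at 8 h (adjusted p = 0.00916), the second value being -0.99 without WT library A of 8 h and -2.27 without library B. These are comparisons in which 65% and 68.3% of all tested genes were called in iSPCH and 57.1% and 61% in WT, and the 6 h and 8 h values share their 0 h libraries. From 6 h to 8 h EPF2 was 3.35-fold higher again in iSPCH (1.74 ± 0.38, adjusted p = 0.0156), where 7.49% of all tested genes were called, a call that was lost without iSPCH library B of 6 h (adjusted p = 0.0864) or without either library of 8 h (0.079 and 0.0819). The effects of estradiol, of incubation and of the time of day cannot be told apart in the changes from 0 h.

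The line difference of EPF2 itself grew with treatment. It was 3.37 ± 0.60 larger on the log2 scale at 6 h than at 0 h (adjusted p = 0.0274) and 4.75 ± 0.60 larger at 8 h than at 0 h (adjusted p = 0.00136), in comparisons that called 0.718% and 3.26% of all tested genes. The 8 h value was 4.12 without WT library A of 8 h and 5.39 without library B. The 6 h value lost its call without iSPCH library A of 0 h (adjusted p = 0.0903) or without WT library A or B of 6 h (0.157 and 0.11). The step from 6 h to 8 h, 1.39 ± 0.54, did not pass the test (adjusted p = 0.408), where 1.12% of all tested genes were called.

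The 250 bases before the RefSeq start of EPF2 are shown because bHLH proteins such as SPCH bind E-boxes, spelled CANNTG, and this gene had the largest difference. The stretch is chr1:12472618-12472867 of TAIR10.1 on the plus strand, 5′ to 3′, with E-boxes in capitals.
EPF2 promoter: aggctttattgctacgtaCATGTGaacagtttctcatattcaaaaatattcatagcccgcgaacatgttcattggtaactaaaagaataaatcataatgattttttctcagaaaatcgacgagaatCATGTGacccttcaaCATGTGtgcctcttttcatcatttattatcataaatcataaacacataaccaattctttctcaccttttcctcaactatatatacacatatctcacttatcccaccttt
All 3 E-boxes read CATGTG and begin 232, 124 and 109 bases before the start. A CANNTG match on one strand is also one on the other. Over windows of 250 bases before to 50 bases after the start, 61.7% of 27443 promoters held at least 1 CANNTG and 8.37% held 3 or more. The letters CATGTG or, on the other strand, CACATG were searched after this promoter had been seen; 12.9% of promoters held at least 1 and 0.16% held 3 or more. The windows of EPFL9, CLE9, EPFL5 and AT1G20150 held no CANNTG. EPF1 held 2, CATGTG and CAAATG, and EPFL4, EPFL6, CLE10 and SDD1 held 1 each, none of them CATGTG. SBT5.2, outside the set, held 1, which also read CATGTG. None of the 10 held CACGTG, which 7.7% of promoters did.

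**Figure D2:**
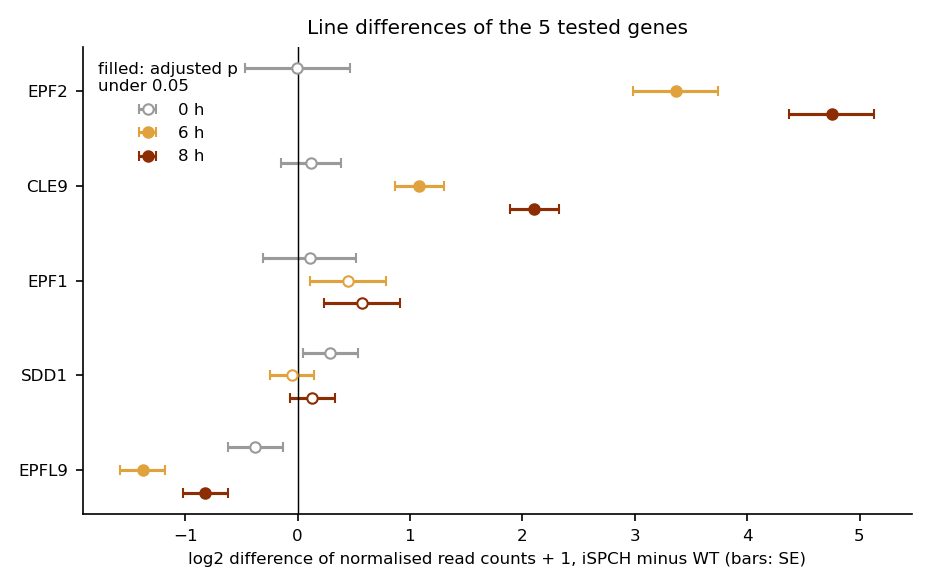
Log2 differences of the normalised read count plus 1, iSPCH minus WT (horizontal axis), of the 5 tested genes at 0 h, 6 h and 8 h; bars are SE and filled points passed an adjusted p of 0.05. EPF2 and CLE9 lie right of 0 and EPFL9 lies left of it at 6 h and 8 h, while the points of EPF1 and SDD1 are all open.

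EPF1, the spacing inhibitor and the closest to EPF2 in its coding end, fell after 0 h in both lines and did not pass the test between them. It had 36.3 and 47.6 normalised read counts in iSPCH at 0 h, 24.4 and 15.4 at 6 h, and 21.2 and 20.8 at 8 h. In WT it had 38.5 at 0 h, 11.4 and 17.1 at 6 h, and 14.0 and 13.6 at 8 h. The iSPCH libraries lay above the WT libraries at 8 h and overlapped them at 6 h. Set against WT, iSPCH differed by 0.45 ± 0.34 on the log2 scale at 6 h (adjusted p = 0.547), and the 8 h value was 0.57 ± 0.34 (adjusted p = 0.342). Against 0 h, EPF1 fell by 1.06 ± 0.34 in iSPCH at 6 h (adjusted p = 0.0123), and it fell by 0.95 ± 0.34 at 8 h (adjusted p = 0.0209). In WT it fell by 1.4 ± 0.41 at 6 h (adjusted p = 0.00937), and it fell by 1.42 ± 0.41 at 8 h (adjusted p = 0.00786). EPF1 reached a CPM of 1 in 4 libraries, those of 0 h in both lines and iSPCH library A of 6 h. It thus passed the filter through the 0 h groups, where it was highest. With no filter on low reads its falls from 0 h, in iSPCH and in WT, were still called. Between 8 h and 6 h in WT 0 of the 5 tested genes were called by limma, edgeR or DESeq2 and 0 had an unadjusted p under 0.05, beside 0.418% of all tested genes called by limma. Both iSPCH calls were lost with DESeq2 (adjusted p = 0.0617 and 0.0706) and without iSPCH library B of 0 h (0.104 and 0.146). The 6 h call was also lost without library B of 6 h (0.119) and the 8 h call without library A or B of 8 h (0.0593 and 0.0682), and the WT call at 6 h was lost without WT library A of 6 h (0.0628).

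EPFL9, the mesophyll-made promoter of stomata, went the other way. It had 173.6 and 193.5 normalised read counts in iSPCH at 0 h, 29.9 and 25.2 at 6 h, and 38.2 and 47.3 at 8 h. In WT it had 238 at 0 h, 85.3 and 62.4 at 6 h, and 75.94 and 75.93 at 8 h. Every iSPCH library lay below every WT library at each hour, 0 h included, where WT had 1 library. EPFL9 was 2.6-fold lower in iSPCH at 6 h (log2 difference -1.38 ± 0.20, adjusted p = 0.00116), and 1.77-fold lower at 8 h (-0.82 ± 0.20, adjusted p = 0.0149). The 8 h call was lost with DESeq2 (adjusted p = 0.0704) and without iSPCH library A (0.117), WT library A (0.0714) or WT library B (0.0838) of that hour.

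At 0 h the EPFL9 difference was -0.38 ± 0.24 (adjusted p = 0.758), and the line differences at 6 h and 8 h did not pass the test against it (-1.002 ± 0.32, adjusted p = 0.196, and -0.45 ± 0.32, adjusted p = 0.513). EPFL9 fell in both lines against their own 0 h level. In iSPCH EPFL9 fell by 2.69 ± 0.20 at 6 h (adjusted p = 1.76e-08), and it fell by 2.08 ± 0.20 at 8 h (adjusted p = 2.37e-07). In WT it fell by 1.69 ± 0.24 at 6 h (adjusted p = 3.05e-05), and it fell by 1.64 ± 0.24 at 8 h (adjusted p = 3.65e-05). Genes of the mesophyll list, which include light-harvesting and Rubisco small-subunit genes, were also lower in sum in iSPCH at 6 h and 8 h and in both lines at 6 h and 8 h than at 0 h. Their summed deposited means were 1060083 in iSPCH and 1113560 in WT at 0 h, 535283 in iSPCH and 692064 in WT at 6 h, and 368634 in iSPCH and 536166 in WT at 8 h, with 0 of 5 genes at 0. Between 6 h and 8 h the sum was lower at 8 h in both lines. Both EPFL9 values of iSPCH were higher at 8 h than at 6 h, and those of WT overlapped. Neither EPFL9 step passed the limma test (iSPCH 0.61 ± 0.20, adjusted p = 0.0797, and WT 0.06 ± 0.20, adjusted p = 0.953). The mesophyll genes are too abundant for their reads to be split between libraries, so these are the authors' means with no spread, and their part in the EPFL9 result was not tested.

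**Figure D3:**
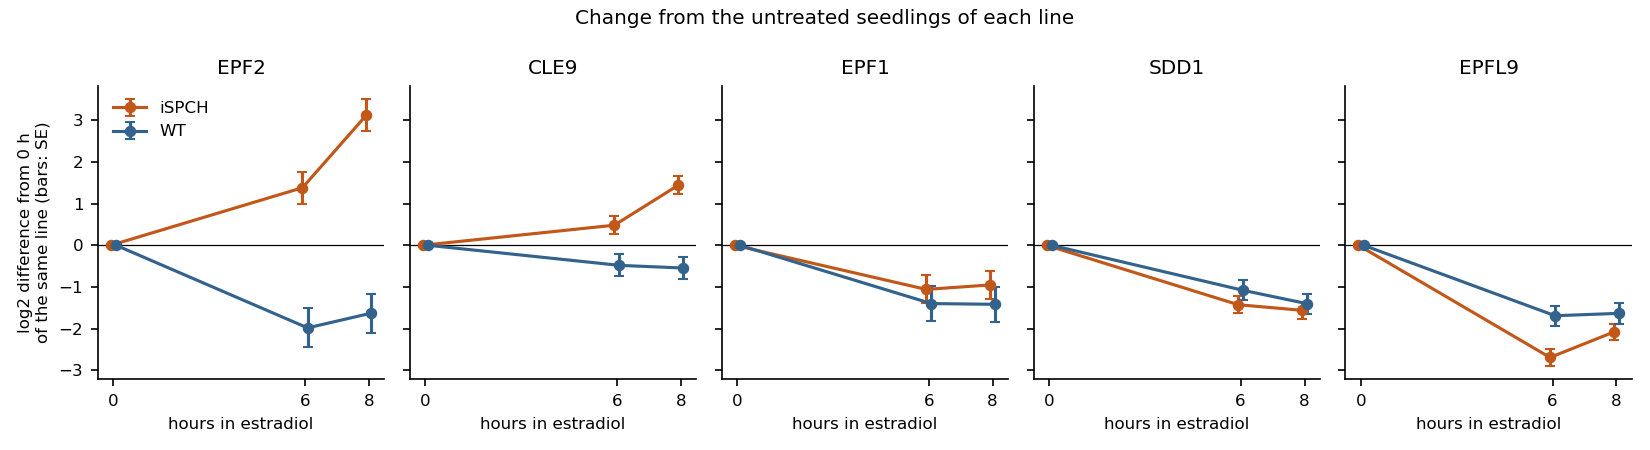
Log2 difference from the untreated seedlings of the same line (vertical axis) at 0 h, 6 h and 8 h in estradiol for the 5 tested genes, iSPCH and WT; bars are SE. EPF2 lies at 3.12 in iSPCH and -1.63 in WT at 8 h, and SDD1 lies at -1.56 in iSPCH and -1.403 in WT.

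The CHALLAH group was low in whole seedlings, and none of its 3 genes was tested. EPFL5 had 22 and 32 reads in iSPCH at 0 h, 12 and 3 at 6 h, and 5 and 12 at 8 h, against 27, then 24 and 11, then 10 and 9 reads in WT. EPFL6 had 19 and 8, 9 and 18, and 7 and 6 reads in iSPCH, against 12, then 12 and 11, then 10 and 12 in WT, so its highest and lowest normalised values, 25.2 and 6.92, were both from iSPCH. EPFL4 had 5 and 7, 4 and 2, and 1 and 0 reads in iSPCH, against 9, then 3 and 3, then 3 and 3 in WT, and a count of 0 allows up to 3 reads in that library. With no filter on low reads, no line difference of the 3 passed the test, the nearest being EPFL4 at 8 h (-1.47 ± 0.48, adjusted p = 0.0949). In that fit EPFL5 was lower in iSPCH at 6 h and 8 h than at 0 h (-1.85 ± 0.51, adjusted p = 0.00827, and -1.46 ± 0.51, adjusted p = 0.0284), and EPFL4 was lower at 8 h (-2.22 ± 0.48, adjusted p = 0.00145), on the few reads given.

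CLE9 rose with induction, while CLE10, whose coding end is close to it, was not tested. The last 26 codons and the stop codon of both are shown, since the CLE peptide is cut from this end; the length was settled after a shorter stretch had been viewed, and the bases that differ are in capitals.
CLE9: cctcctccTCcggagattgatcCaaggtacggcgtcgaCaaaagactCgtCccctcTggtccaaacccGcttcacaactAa
CLE10: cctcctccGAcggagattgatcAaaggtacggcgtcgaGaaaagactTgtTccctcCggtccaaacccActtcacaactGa
The genes shared 72 of these 81 bases and differed at 9. CLE9 had 44.8 and 40.8 normalised read counts in iSPCH at 0 h, 64.6 and 56.0 at 6 h, and 114.7 and 121.1 at 8 h. In WT it had 39.3 at 0 h, 27.5 and 28.2 at 6 h, and 29.7 and 23.8 at 8 h. Every iSPCH library was above every WT library of the same hour. At 0 h the gap was small, 40.8 against 39.3 in the single WT library, and the line difference was not called (0.12 ± 0.26, limma adjusted p = 0.954). CLE9 was 2.12-fold higher in iSPCH at 6 h (log2 difference 1.09 ± 0.22, adjusted p = 0.00948) and 4.31-fold higher at 8 h (2.11 ± 0.22, adjusted p = 1.57e-05). The 6 h call was lost without WT library A (adjusted p = 0.0869) or B (0.067) of that hour.

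Against 0 h, CLE9 was 2.71-fold higher in iSPCH at 8 h (1.44 ± 0.22, adjusted p = 2.7e-05), while the 6 h value, 0.48 ± 0.22, did not pass the test (adjusted p = 0.0619), though it did with edgeR (0.0393) and with library-size scaling (0.0213). From 6 h to 8 h it was 1.94-fold higher in iSPCH (0.96 ± 0.22, adjusted p = 0.0127), a call lost with DESeq2 (0.052) and without iSPCH library B of 6 h (0.0735) or library A or B of 8 h (0.0626 and 0.0949). In WT it did not pass the test at 6 h (-0.48 ± 0.26, adjusted p = 0.132) or 8 h (-0.55 ± 0.26, adjusted p = 0.0862). The line difference was 1.99 ± 0.34 larger at 8 h than at 0 h (adjusted p = 0.00473). CLE10 had 17.2 and 25.3 normalised read counts in iSPCH at 0 h, 13.4 and 5.60 at 6 h, and 13.8 and 17.3 at 8 h, against 11.6 in WT at 0 h, 14.2 and 14.1 at 6 h, and 6.98 and 12.5 at 8 h. With no filter on low reads CLE10 was lower in iSPCH at 6 h than at 0 h (-1.16 ± 0.44, adjusted p = 0.0431). In that fit its line difference at 8 h was 0.67 ± 0.44 (adjusted p = 0.488), and whether it differs from that of CLE9 was not tested.

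SDD1, the subtilase named for its effect on stomatal density and distribution, fell in both lines after 0 h. It had 333 and 281 normalised read counts in iSPCH at 0 h, 114.2 and 112 at 6 h, and 97.7 and 108.4 at 8 h. In WT it had 249.5 at 0 h, 124.2 and 110.7 at 6 h, and 72.4 and 121.3 at 8 h. At 0 h both iSPCH libraries lay above the single WT library, a line difference of 0.29 ± 0.24 on the log2 scale that was not called. The lines overlapped at 6 h and at 8 h. iSPCH minus WT came to -0.051 ± 0.20 on the log2 scale at 6 h (0.050 with scaling by library size; adjusted p = 0.933), and to 0.13 ± 0.20 at 8 h (adjusted p = 0.758). Against 0 h, SDD1 fell by 1.43 ± 0.20 in iSPCH at 6 h (adjusted p = 1.8e-05), and it fell by 1.56 ± 0.20 at 8 h (adjusted p = 6.39e-06). In WT it fell by 1.08 ± 0.24 at 6 h (adjusted p = 0.00154), and it fell by 1.403 ± 0.24 at 8 h (adjusted p = 0.000166). Of 26 other subtilases tested, 18 were lower and 4 higher in iSPCH at 8 h than at 0 h. In WT 12 were lower and 1 higher. Of all tested genes 68.3% were called in iSPCH and 61% in WT, in either direction. Of the epidermis markers 5 of 5 were lower in both lines. Root markers were lower in 5 of 6 (iSPCH) and 4 of 6 (WT). Guard cell markers were lower in 5 of 7 and 3 of 7, in the same order. None of these markers was higher. Their part in the falls of SDD1 and EPF1 was not tested.

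AT1G20150 had 1 read in all 11 libraries together, in iSPCH library A at 0 h. The 3 reads that a count of 0 allows correspond to 0.038 to 0.0797 RPKM (reads scaled to exon length in kilobases and to library depth) over the libraries. Its gene model overlaps AT1G20140 on the opposite strand. The neighbour SBT5.2 was well measured, with 177.5 and 160.4 normalised read counts in iSPCH at 0 h, 429.4 and 427.1 at 6 h, and 339.8 and 386.5 at 8 h, against 138.6, then 379.1 and 334.1, then 374.5 and 353.6 in WT. It was higher than at 0 h in both lines, by 1.34 ± 0.11 in iSPCH and 1.35 ± 0.14 in WT at 6 h (adjusted p = 6e-08 and 8.33e-07) and by 1.098 ± 0.11 in iSPCH and 1.39 ± 0.14 in WT at 8 h (4.28e-07 and 5.26e-07). Between the lines it did not pass the test at 6 h (0.27 ± 0.11, adjusted p = 0.215) or 8 h (-0.01 ± 0.11, adjusted p = 0.985).

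Levels between genes were compared per length, as RPKM. At 0 h EPFL9 was the highest of the 10 in both lines, at 7.33 and 8.10 in iSPCH and 9.56 in WT, and SDD1 came next at 4.61 and 5.51 in iSPCH and 3.93 in WT. EPF2 followed at 1.68 and 2.57 in iSPCH and 1.99 in WT, and in iSPCH it overlapped EPF1 below it. At 8 h the order differed between lines. In iSPCH EPF2 led at 20.95 and 20.61, then CLE9 at 4.88 and 5.21, with EPFL9 at 1.796 and 2.25 overlapping SDD1 at 1.799 and 2.02. In WT EPFL9 still led at 3.26 and 3.33, then SDD1 at 1.22 and 2.09, and CLE9, EPF2, EPF1, EPFL5 and CLE10 followed with each overlapping the next. EPFL6, EPFL4 and AT1G20150 closed the order in both lines.

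**Figure D4:**
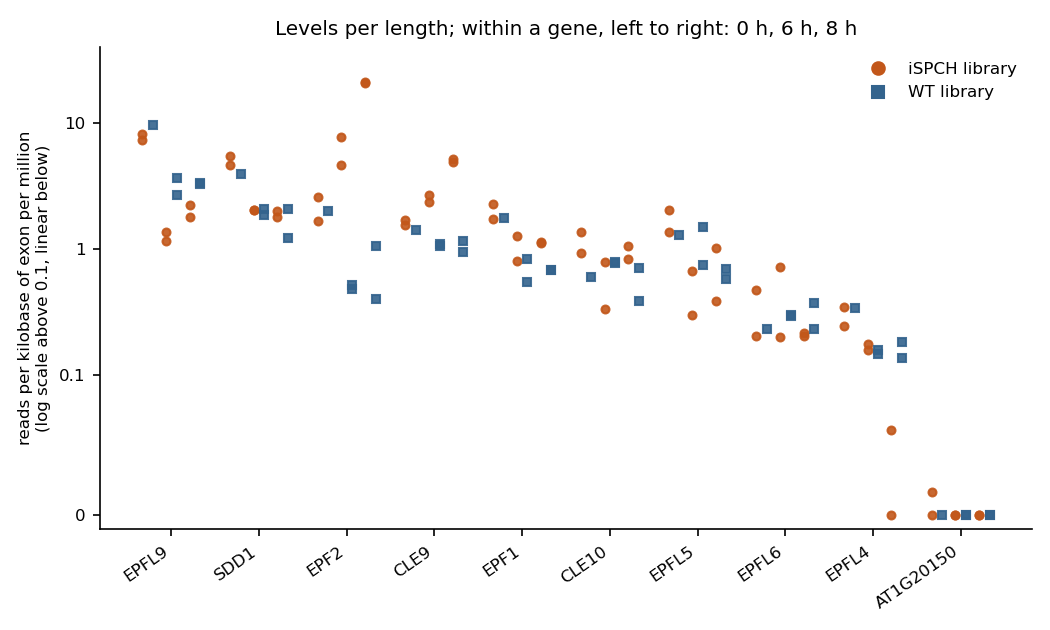
RPKM (vertical axis, log scale above 0.1 and linear below) of the 10 genes, ordered by their median over all libraries; each point is a library, iSPCH or WT, with 0 h, 6 h and 8 h from left to right within a gene. EPF2 at 8 h lies near 21 in iSPCH and at 0.401 and 1.06 in WT.

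Among other genes of the pathway, members of the receptor, polarity and transcription factor lists were called between the lines at 8 h, and none of the kinases passed the test. At that hour 4.75% of all tested genes were called higher in iSPCH and 5.87% lower. Of 9 receptor genes 3 were higher and 2 lower, with a median difference of 0.11, and DESeq2 called 4 of the 9. TMM, which partners the ERECTA family, was higher by 3.96 ± 0.11 (adjusted p = 9.15e-12), and the ERECTA relatives ERL1 and ERL2 by 2.11 ± 0.19 (5.93e-06) and 1.101 ± 0.12 (3.76e-05). ER itself was lower, at -0.44 ± 0.10 (0.0132), and the CLE9 receptor HSL1 was the other lower gene, at -0.24. Both genes of the polarity list, BASL and POLAR, were higher, by 3.04 ± 0.21 and 3.95 ± 0.16, as were 2 of 4 transcription factors other than SPCH, the SPCH partners ICE1 (1.70 ± 0.08) and SCRM2 (1.44 ± 0.08). Of the MAP kinase cascade 0 of 6 genes were called by limma, edgeR or DESeq2 at 8 h, and 0 had an unadjusted p under 0.05.

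In the families to which the set belongs, calls at 8 h stand beside the same 10.6% of all tested genes. Of the other EPFL genes 1 of 2 tested was higher, EPFL7, by 1.22 ± 0.36 (adjusted p = 0.0398), and DESeq2 called 0 of the 2. Of 12 other CLE genes tested 0 were called by limma, edgeR or DESeq2, and 2 had an unadjusted p under 0.05. Of 26 other subtilases 3 were higher and 2 lower, where DESeq2 called 3 in all. The higher genes were SBT3.5 at 1.12 ± 0.15 (limma adjusted p = 0.000205), AT4G10510 at 1.64 ± 0.35 (0.0071) and SLP3 at 0.52 ± 0.12 (0.01315). The lower genes were SLP2 at -0.48 ± 0.10 (0.004185) and AT2G39850 at -0.98. The median line difference at 8 h was -0.09 over the CLE genes and -0.12 over the subtilases, beside -0.03 over all tested genes.

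**Figure D5:**
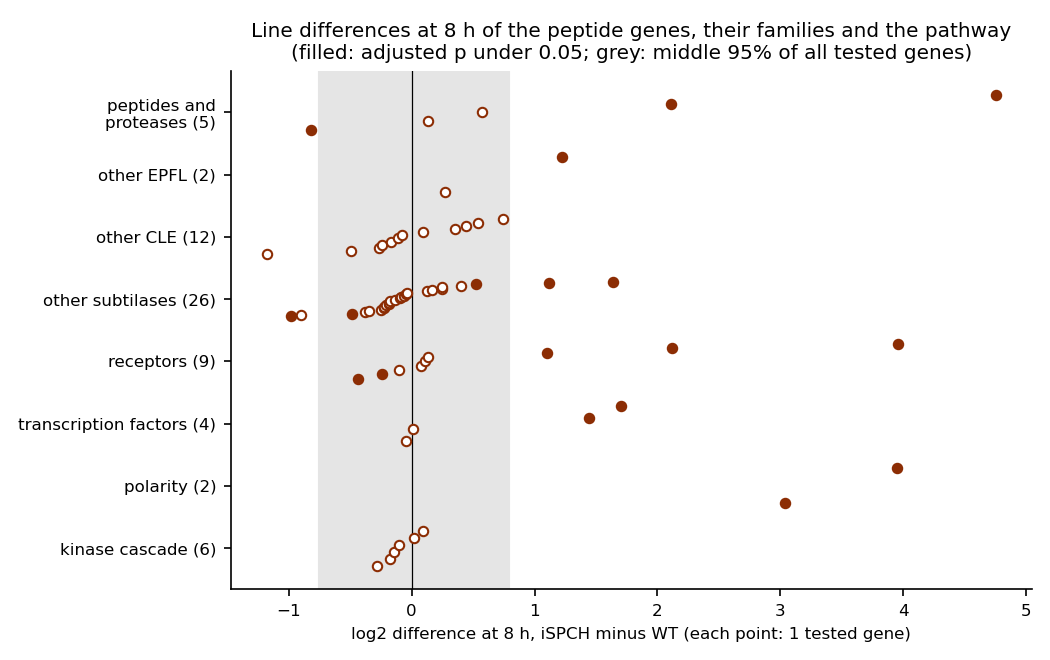
Log2 differences at 8 h, iSPCH minus WT (horizontal axis), of each tested gene of the set, its families and the pathway lists, SPCH left out; filled points passed an adjusted p of 0.05 and the grey band holds the middle 95% of all tested genes. The band runs to 0.80 on the right, and EPF2 at 4.75, TMM at 3.96 and POLAR at 3.95 lie farthest beyond it.

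The genes whose log2 values over the 11 libraries were most like those of EPF2, among 19624 compared, were VTC5, HB31, SCRM2 and POLAR, with Pearson's r of 0.980, 0.978, 0.977 and 0.974. Those most like EPFL9 were CYP706A5, AT2G33855, PP2CA and AT5G44680, with r of 0.992, 0.985, 0.984 and 0.983. The libraries share their groups and depth, so these values are a description only.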

How the data were processed

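The deposited table holds 1 signal value per locus and group, which are group means of normalised read counts made by the authors (0 columns were left unused). CASAVA 1.8, TopHat, DESeq and TAIR10 are named, without roles, per the submitters' processing notes; the counting tool and strand setting are not stated in the sources used. Each mean of 2 libraries is a whole multiple of one step plus a whole multiple of another, so reads per library were solved for. A single solution in every group was found for 33439 loci. The other 163, whose largest group means start at 10865.1, hold 34.2% of reads and were not tested. Where a group mean had several solutions, its normalised value was divided equally between the 2 libraries. The totals of assigned reads, and the CPM, RPKM and library-size scaling that use them, rest partly on that assumed split. All genes of the set had 1 solution. The design had provided for limma on log2 values where the table held no whole counts.

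Recovered reads divided by the authors' size factors, plus 1, were fitted on the log2 scale with limma 3.58.1 (R 4.3.3; limma-trend, robust variance, 1 coefficient per group), with untreated WT assumed to vary like the other groups. The median SE of a line difference was 0.124. The script was tested on simulated data. edgeR 4.0.16, DESeq2 1.42.0, another added count, scaling or filter, only the compared groups, and leaving out each library were alternatives. Copies were sought with BLAST+ 2.17.0. RefSeq's TAIR10.1 gave names, lengths and sequence for 32835 loci. The rule for named genes took all genes of the set, SBT5.2, called list members and the 4 genes most like EPF2 and EPFL9. The genes and lists were chosen with earlier results of these data known.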

Additional observations from a re-analysis of the deposited data

Results flagged for a closer look

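The difference between iSPCH and WT changed with treatment for 2 genes, by the test of that change itself in the same limma fit. For EPF2 the log2 line difference was 3.37 larger at 6 h than at 0 h (adjusted p = 0.0274) and 4.75 larger at 8 h than at 0 h (adjusted p = 0.00136); without WT library A or B of 8 h the 8 h value was 4.12 or 5.39. For CLE9 it was 1.99 larger at 8 h than at 0 h (adjusted p = 0.00473), and at 6 h 0.96 larger, which did not pass the test (adjusted p = 0.26). Each of these rests on the single library of untreated WT.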

How the results depend on the processing

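No paired analysis was possible because the libraries behind the deposited means cannot be traced to the replicate numbers of the labels. The line differences of EPF2 at 6 h and 8 h, of CLE9 at 8 h and of EPFL9 at 6 h kept their direction and passed the test under every alternative that could test them; with a mean CPM of at least 5, of the genes described only SDD1 and SBT5.2 are tested. The alternatives for single genes in the comparison of lines at 0 h were chosen after seeing the data. With DESeq2, EPF1 in iSPCH was -1.06 at 6 h and -1.01 at 8 h against 0 h, EPFL9 between lines at 8 h was -0.83 and CLE9 in iSPCH at 8 h against 6 h was 0.96, all no longer called. CLE9 in iSPCH at 6 h against 0 h was called with library-size scaling (0.61) and edgeR (0.51). Uncalled differences near 0 turned sign: EPF2 at 0 h to 0.061 with library-size scaling and 0.028 with edgeR and with DESeq2, SDD1 between lines at 6 h to 0.050 with library-size scaling, SBT5.2 at 8 h to 0.12 with library-size scaling and 0.026 with TMM, and its 6 h minus 0 h line difference to 0.022 with library-size scaling. Leaving out 1 library at a time gave these ranges on the log2 scale. For EPF1 they were -0.085 to 0.30 between lines at 0 h, -1.38 to -0.74 (iSPCH 6 h against 0 h), -1.15 to -0.76 (iSPCH 8 h against 0 h), -0.21 to 0.42 (iSPCH 8 h against 6 h), -1.68 to -1.13 (WT 6 h against 0 h), -0.29 to 0.26 (WT 8 h against 6 h) and -0.19 to 0.44 (line difference 8 h minus 6 h). For EPF2 they were -0.31 to 0.30 between lines at 0 h, 1.0 to 1.76 (iSPCH 6 h against 0 h), 1.36 to 2.12 (iSPCH 8 h against 6 h), -0.28 to 0.99 (WT 8 h against 6 h) and 2.98 to 3.75 (line difference 6 h minus 0 h). For EPFL9 they were -0.97 to -0.67 between lines at 8 h and -0.17 to 0.28 (WT 8 h against 6 h). For CLE9 they were 0.98 to 1.19 between lines at 6 h, 0.86 to 1.06 (iSPCH 8 h against 6 h) and -0.22 to 0.090 (WT 8 h against 6 h). For SDD1 they were -0.13 to 0.031 and -0.23 to 0.50 between lines at 6 h and 8 h, -0.69 to 0.048 (WT 8 h against 6 h), -0.18 to 0.55 (line difference 8 h minus 6 h) and -0.53 to 0.21 (8 h minus 0 h). For SBT5.2 they were -0.099 to 0.087 between lines at 8 h, -0.059 to 0.12 (WT 8 h against 6 h) and -0.11 to 0.076 (line difference 6 h minus 0 h). Genes called between lines numbered 18 at 0 h, and 31 with library-size scaling, 30 with no filter, 42 with DESeq2 and 19 to 41 without 1 library. At 6 h 919 genes were called, 536 with only the compared groups and 225 to 1388 without 1 library, lowest without WT library A of 6 h. At 8 h 2084 were called, and 1105 to 2495 without 1 library, lowest without WT library B of 8 h. For iSPCH at 8 h against 6 h the range was 751 to 1473, and for WT at 8 h against 6 h it was 5 to 176, with 41 under no filter, 125 with edgeR and 170 with DESeq2. For the changes of the line difference it was 106 to 313 (8 h minus 6 h), 41 to 279 (6 h minus 0 h) and 344 to 945 (8 h minus 0 h). The cause of these shifts was not tested. Reads limit EPFL4, EPFL5, EPFL6, CLE10 and AT1G20150, which had at most 32 reads in any library. Of the tested genes, EPF1 had 11 to 50 reads in a library, and EPF2 had 9 to 18 in those of treated WT.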
